A study of Mus musculus with 10 samples.

Results

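The NF-κB and acute-phase response was followed through 10 genes in cultured granule cell precursors of the mouse cerebellum: Nfkbia, Nfkbiz, Tnfaip2, Tnfaip3, Icam1, Ptx3, Socs3, Saa3, Acod1 and Tlr2. They were taken by name, with every probe set that the platform annotation gives to each symbol on the Mouse Genome 430 2.0 array. That made 10 genes of 18193 named on the array, and 22 probe sets of 45037. The genes were proposed with results of these arrays in view, and the measured values they were chosen by are not recorded. The p-values below, adjusted over all 11405 genes tested, therefore describe each gene in the fit and are no independent support for the choice.

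Precursors were cultured from pups of postnatal days 5 to 7, as the sample labels give it, and the series' design text names day 7. The groups were Bmi1 knockout (KO) cells with Shh, the mitogen of these precursors (2 arrays, numbered 8 and 10), wild type (WT) cells with Shh (2 arrays, 7 and 9), untreated KO cells (3 arrays, 2, 4 and 6) and untreated WT cells (3 arrays, 1, 3 and 5). All cultures grew for 24 hours in medium with 10% serum and 20 mM KCl, and Shh was present for 24 hours at a labelled 3 mg/ml. Bmi1 encodes a Polycomb repressor protein. The labels give the genotype alone, with no account of the allele or of a promoter or cell type behind the deletion. The arrays are called biological replicates, and the labels do not say how many animals went into each. Shh-treated arrays carry the numbers 7 to 10 and untreated arrays 1 to 6. Treatment with Shh therefore cannot be told apart from any other difference between these sets of arrays, such as preparation or hybridisation. Below, a rise, a fall or an effect of Shh means the difference between them. The treatment note of untreated WT array 3 mentions Shh where applicable, while its title and characteristics place it among the untreated cultures.

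NF-κB is a family of transcription factors held in the cytoplasm by IκB proteins. Receptors for bacterial products, TNF and interleukin-1 activate the IκB kinase, which marks IκB for degradation and frees NF-κB to enter the nucleus. Among its first targets are its own inhibitors, so the response is a feedback loop: IκBα, encoded by Nfkbia, and A20, encoded by Tnfaip3, are remade and switch the signal off. Interleukin-6 and related cytokines act through STAT3, which with C/EBP factors drives the acute-phase proteins of liver and inflamed tissue. In the brain these programmes are best known from microglia, astrocytes and endothelial cells.

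The promoters are shown first for 5 genes: 3 with a match to the κB consensus, an acute-phase gene with a C/EBP-type match and the STAT3 feedback gene with a STAT-type match. The windows are the 250 bases before the annotated start in RefSeq (GRCm38.p6), written 5′ to 3′ on the gene's strand in lower case, with motif matches in capitals. They lie at chr12:55492648-55492897 on the minus strand for Nfkbia, chr10:19015411-19015660 on the minus strand for Tnfaip3, chr12:111442411-111442660 on the plus strand for Tnfaip2, chr7:46715677-46715926 on the minus strand for Saa3 and chr11:117969367-117969616 on the minus strand for Socs3.
Nfkbia: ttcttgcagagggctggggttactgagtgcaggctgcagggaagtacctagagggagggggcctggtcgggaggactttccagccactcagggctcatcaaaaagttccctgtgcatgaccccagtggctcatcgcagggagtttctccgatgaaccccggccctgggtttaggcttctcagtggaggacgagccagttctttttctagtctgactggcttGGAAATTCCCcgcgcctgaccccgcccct
Tnfaip3: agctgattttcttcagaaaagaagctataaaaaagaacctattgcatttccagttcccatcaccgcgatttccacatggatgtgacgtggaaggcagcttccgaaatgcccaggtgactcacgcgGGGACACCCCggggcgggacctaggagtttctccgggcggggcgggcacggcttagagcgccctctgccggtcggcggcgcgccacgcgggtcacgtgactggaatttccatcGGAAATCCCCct
Tnfaip2: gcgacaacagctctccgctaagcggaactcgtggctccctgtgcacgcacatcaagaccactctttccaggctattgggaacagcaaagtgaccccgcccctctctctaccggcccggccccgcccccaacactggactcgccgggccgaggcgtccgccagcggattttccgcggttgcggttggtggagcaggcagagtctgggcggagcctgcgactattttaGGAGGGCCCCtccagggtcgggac
Saa3: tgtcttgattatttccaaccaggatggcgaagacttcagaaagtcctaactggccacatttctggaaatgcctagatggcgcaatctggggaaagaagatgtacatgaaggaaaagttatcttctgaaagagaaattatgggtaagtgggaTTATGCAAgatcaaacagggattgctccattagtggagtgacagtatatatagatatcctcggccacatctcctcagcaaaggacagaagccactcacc
Socs3: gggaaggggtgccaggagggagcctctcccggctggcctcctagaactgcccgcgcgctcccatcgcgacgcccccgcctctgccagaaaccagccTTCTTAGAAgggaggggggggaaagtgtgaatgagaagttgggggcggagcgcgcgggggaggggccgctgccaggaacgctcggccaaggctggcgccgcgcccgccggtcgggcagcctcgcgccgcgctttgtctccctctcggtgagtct
The table of RefSeq promoters matched 9 of the 10 genes, Nfkbiz being the other. Both strands were searched for 3 motifs: the κB consensus, TTCNNNGAA (the STAT form) and TTGCNNAA (a C/EBP form). The κB consensus was found in 4 of the 9 genes, Nfkbia, Tnfaip2, Tnfaip3 and Tlr2, and in 7.25% of 32851 promoter windows of this length. Tnfaip3 had 2 separate matches, at bases -125 to -116 and -12 to -3 from the start, in 1 of its 2 annotated windows. Tlr2 had 2 matches that overlap each other, between bases -173 and -163. TTCNNNGAA was found in Socs3 and Icam1 and in 7.02% of all windows, and TTGCNNAA in Saa3 and Ptx3 and in 9.56% of all windows. A match describes the letters of the window and shows neither binding nor use. Genes with a κB match stood on both sides in the measurements that follow: Nfkbia and Tnfaip3 were lower in Shh-treated cultures and Tnfaip2 higher.

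The values are MAS5 signals, a linear measure of brightness with a 2% trimmed mean of 500.0 on every array. Signals below 20.9, the 25th percentile over all probe sets and arrays, were raised to that floor before log2 was taken. Each gene is represented by its brightest probe set. A gene was tested where its mean over the 10 arrays reached a signal of 76.1, the median of all probe sets. All 10 genes passed, by 18 of their 22 probe sets, but Acod1, Saa3 and Tnfaip2 lay below that line in both untreated groups and passed only through the Shh-treated arrays. Signals of different probe sets are not comparable as levels, so genes are compared by their differences.

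Of 14 granule precursor markers, none was at the floor on all arrays of a group. The same held for 14 astrocyte and Bergmann glia markers, so this does not identify the cell type. The median signal was 66.6 to 72.1 on Shh-treated arrays and 84.4 to 90.9 on untreated arrays, and the first principal component separated these groups with 70.1% of the variance. Bmi1 had 2 probe sets, with signals of 3416 to 3432 and 2072 to 2219 in KO cells with Shh and of 4165 to 4515 and 2042 to 2555 in WT cells with Shh. In untreated cultures they read 3416 to 3904 and 1587 to 2163 in KO cells and 3673 to 4253 and 1731 to 2274 in WT cells. Which part of Bmi1 was removed is not known here, and signals this close do not check the genotype labels.

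Acod1 and Saa3 were the genes that differed most. Acod1, which encodes the mitochondrial enzyme that makes itaconate in activated macrophages, had signals of 626 and 541 in KO cells with Shh, and 624 and 892 in WT cells with Shh. In untreated cultures it read 9.35, 4.99 and 4.96 in KO cells, and 2.42, 4.38 and 3.54 in WT cells. All 4 Shh-treated arrays were bright and all 6 untreated arrays lay below the floor. Against the floor, Acod1 was at least 27.9-fold higher with Shh in KO cells (adjusted p = 1.98e-07) and at least 35.7-fold higher in WT cells (adjusted p = 1.76e-07). The 6 untreated arrays, all set to the floor, added no spread, so these p-values do not measure variation between untreated cultures. Acod1 was tested only through its Shh-treated arrays and this floor. It was not tested with the floor at the 10th percentile or with 16 added in place of a floor.

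Saa3 encodes a serum amyloid A protein made outside the liver, in macrophages and other cells. Its signals were 235 and 431 in KO cells with Shh, and 951 and 896 in WT cells with Shh, against 18.5, 58.7 and 64.6 in untreated KO cells and 47.5, 54.0 and 50.1 in untreated WT cells. The Shh-treated arrays lay above every untreated array in both genotypes, and 1 untreated KO array was below the floor. With that array set to the floor, Saa3 was higher with Shh by 2.89 ± 0.44 log2 in KO cells (SE, adjusted p = 0.00151) and by 4.19 ± 0.44 log2, or 18.3-fold, in WT cells (adjusted p = 0.000161). With any 1 array left out, Acod1 was higher by 4.69 to 4.91 log2 in KO cells and by 4.90 to 5.42 in WT cells. Saa3 was then higher by 2.37 to 3.33 in KO cells and by 4.15 to 4.24 in WT cells. Those fits kept the genes that had passed the filter on all 10 arrays.

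Tnfaip2, a gene induced by TNF and named for it, had signals of 160 and 140 in KO cells with Shh and 164 and 81.8 in WT cells with Shh. Untreated cultures gave 66.0, 55.7 and 90.0 in KO cells and 63.2, 71.4 and 56.5 in WT cells. One Shh-treated WT array, number 9, lay below the highest untreated KO array, while within each genotype the Shh-treated and untreated arrays did not overlap. Tnfaip2 was higher with Shh by 1.11 ± 0.28 log2 in KO cells (adjusted p = 0.0185) and by 0.87 ± 0.28 in WT cells (adjusted p = 0.0425). The WT call was lost with consecutive arrays as pairs (adjusted p = 0.0517) and without array 1, 2, 3, 5, 7, 8 or 10 (adjusted p up to 0.334). The KO call was lost without array 4, 8 or 10 (adjusted p up to 0.108). With no filter on dim genes both calls were lost (adjusted p = 0.0558 in KO cells and 0.104 in WT cells).

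The other 2 probe sets of Tnfaip2 were below the line for testing and went opposite ways. The next in brightness read 137 and 146 in KO cells with Shh and 144 and 143 in WT cells with Shh, against 19.8 to 59.6 in untreated KO cells and 44.0 to 73.1 in untreated WT cells. The dimmest read 51.7 and 69.7 in KO cells with Shh and 41.6 and 49.0 in WT cells with Shh, against 62.7 to 68.2 in untreated KO cells and 72.8 to 116 in untreated WT cells. The averages over both genotypes were 1.63 and -0.52 log2 for these probe sets, so the higher reading of Tnfaip2 rests on 2 of its 3 probe sets.

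**Figure D1:**
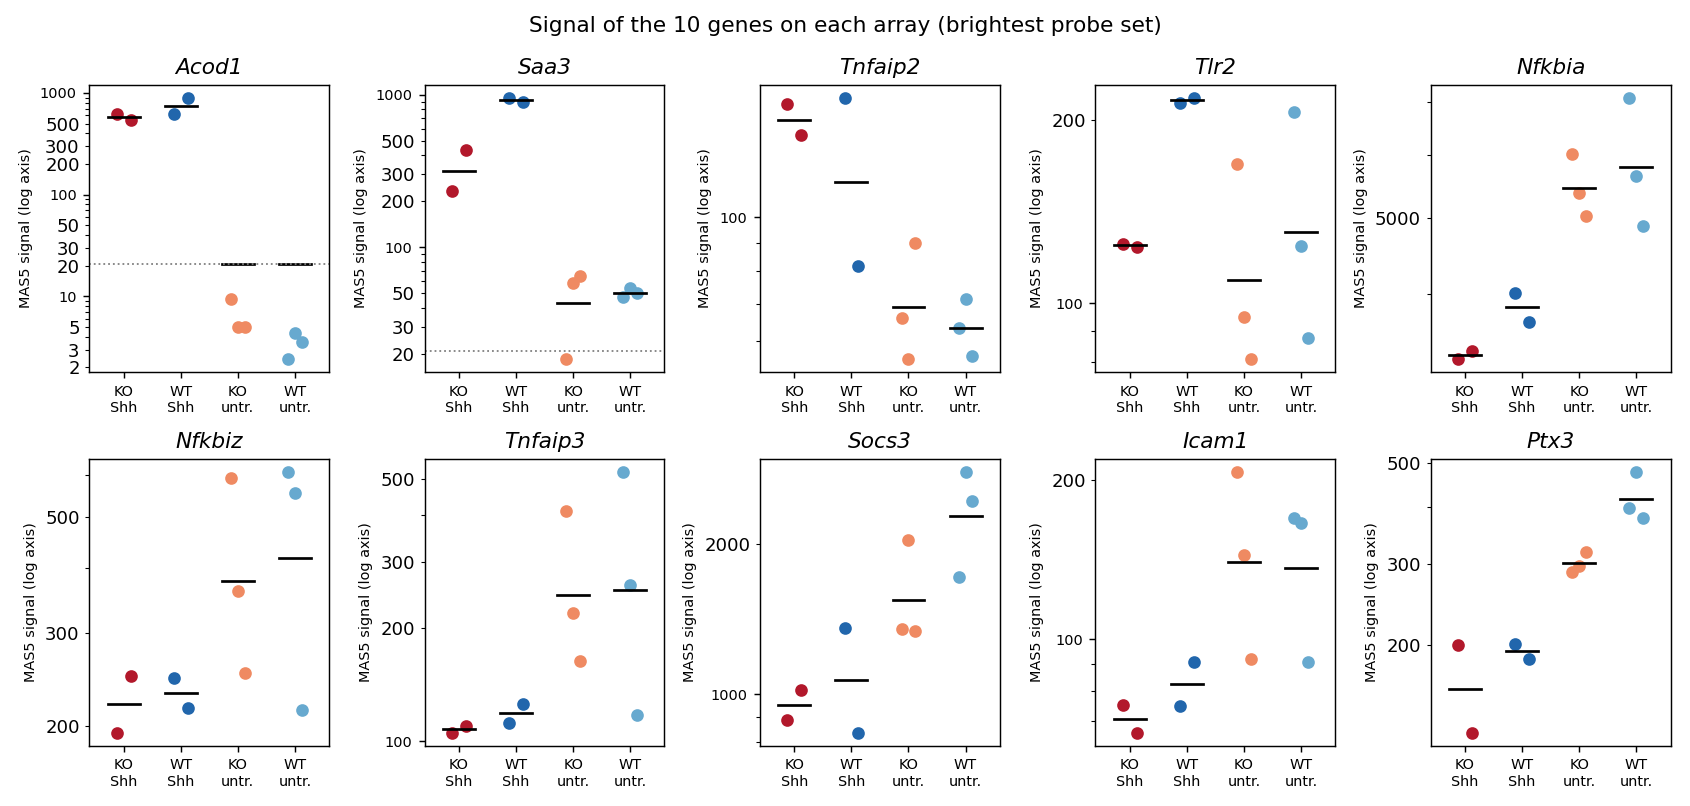
Signal of each of the 10 genes on each of the 10 arrays, with 1 panel per gene, a log axis and the groups from left to right KO with Shh, WT with Shh, untreated KO and untreated WT. Points are arrays, bars are group means of log2 signal after the floor, and the dotted line marks the floor of 20.9. Acod1 and Saa3 separate the Shh-treated arrays from all others, while Nfkbia and Ptx3 are lower on every Shh-treated array than on any untreated array.

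Of the feedback inhibitors, Nfkbia passed the test in both genotypes. It had signals of 3315 and 3396 in KO cells with Shh and 4021 and 3696 in WT cells with Shh. Untreated cultures gave 6013, 5378 and 5024 in KO cells and 7084, 5651 and 4880 in WT cells. All 4 Shh-treated arrays lay below all 6 untreated arrays. Nfkbia fell with Shh by 0.70 ± 0.15 log2 in KO cells (adjusted p = 0.00889) and by 0.59 ± 0.15 in WT cells (adjusted p = 0.0164). The WT call was lost without array 7 or 9 (adjusted p up to 0.104) and the KO call without array 8 (adjusted p = 0.0560). Centring each array on its median lost both, with log2 differences of -0.41 in KO cells (adjusted p = 0.0784) and -0.24 in WT cells (adjusted p = 0.261). That centring raised the median of all tested genes to 0.29 log2 in KO cells and 0.33 in WT cells, against -0.01 in either genotype without it.

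Nfkbia had 5 probe sets. In a fit of every probe set, 4 of them fell on average over the genotypes by 0.65 to 0.82 log2. The fifth was the dimmest, at 111 to 158 with Shh and 133 to 209 without. Its difference was -0.22 ± 0.15 log2 (adjusted p = 0.257).

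Tnfaip3 encodes A20, a ubiquitin-editing enzyme that ends signalling from the TNF receptor. Its signals were 105 and 110 in KO cells with Shh and 112 and 126 in WT cells with Shh, against 409, 219 and 164 in untreated KO cells and 522, 261 and 118 in untreated WT cells. The untreated arrays spread over more than the difference between conditions in WT cells, where array 5 read 118 and the Shh-treated arrays 112 and 126. A second probe set, below the line for testing, read 12.4 and 29.0 in KO cells with Shh and 10.6 and 22.5 in WT cells with Shh. Untreated, it read 45.0 to 141 in KO cells and 44.6 to 84.8 in WT cells. It averaged -1.45 ± 0.37 log2, with 2 Shh-treated arrays set to the floor. By its brightest probe set, Tnfaip3 differed by -1.19 ± 0.55 log2 in KO cells (adjusted p = 0.141) and by -1.08 ± 0.55 in WT cells (adjusted p = 0.162, and 0.0238 without array 5). The average over both genotypes passed the threshold (-1.14 ± 0.39, adjusted p = 0.0377). Leaving out any 1 of arrays 2, 3, 4, 7, 8, 9 and 10 lost that call (adjusted p up to 0.0949), and so did median centring (-0.82, adjusted p = 0.0856), quantile normalization (-0.85, adjusted p = 0.127) and testing all genes with no filter (adjusted p = 0.101).

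Nfkbiz encodes IκBζ, a nuclear member of the IκB family that is itself induced and that promotes the expression of some secondary targets. Its signals were 194 and 249 in KO cells with Shh and 247 and 216 in WT cells with Shh, against 593, 361 and 252 in untreated KO cells and 609, 555 and 215 in untreated WT cells. The untreated arrays of each genotype were spread widely, and untreated WT array 5 read lower than every Shh-treated array but 1. The differences were -0.78 ± 0.46 log2 in KO cells (adjusted p = 0.241) and -0.85 ± 0.46 in WT cells (adjusted p = 0.185). Without array 5 the WT value passed (adjusted p = 0.0211). The average over both genotypes, -0.82 ± 0.32, did not (adjusted p = 0.0651), except without array 5 or 6. Of its 2 other probe sets, the dimmest was tighter and fell on average by 1.26 log2 in the fit of every probe set (adjusted p = 0.00143), and the other differed by -0.46 (adjusted p = 0.323).

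Socs3, which encodes an inhibitor of signalling by JAK kinases and STAT3, had signals of 885 and 1021 in KO cells with Shh and 1360 and 836 in WT cells with Shh. Untreated cultures gave 1351, 2042 and 1340 in KO cells and 1721, 2797 and 2445 in WT cells. Within each genotype the Shh-treated arrays lay below the untreated ones. Socs3 fell with Shh in WT cells by 1.09 ± 0.28 log2 (adjusted p = 0.0149, and 0.131 without array 9) and differed by -0.70 ± 0.28 in KO cells (adjusted p = 0.0902). Both other probe sets fell in both genotypes in the fit of every probe set. The dimmer and tighter of them read 450 and 482 in KO cells with Shh and 451 and 480 in WT cells with Shh, against 683 to 770 in untreated KO cells and 921 to 969 in untreated WT cells. It fell by 0.66 ± 0.10 log2 in KO cells (adjusted p = 0.0023) and by 1.02 ± 0.10 in WT cells (adjusted p = 0.000185).

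Tlr2 is the receptor of the set and recognises bacterial lipoproteins. Its signals were 125 and 124 in KO cells with Shh and 213 and 217 in WT cells with Shh, against 169, 94.9 and 81.0 in untreated KO cells and 206, 124 and 87.6 in untreated WT cells. The Shh-treated arrays agreed closely within a genotype. In KO cells the untreated arrays lay on both sides of them, and in WT cells all 3 lay below them. Tlr2 differed with Shh by 0.19 ± 0.37 log2 in KO cells (adjusted p = 0.739) and by 0.72 ± 0.37 in WT cells (adjusted p = 0.163). The WT value passed without array 1 (adjusted p = 0.0389) and with median centring (1.07, adjusted p = 0.0329). The average over both genotypes was 0.45 ± 0.26 (adjusted p = 0.179, against 0.0458 without array 1 and 0.0238 with median centring).

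Icam1, an adhesion molecule that binds leukocyte integrins, had signals of 75.0 and 66.6 in KO cells with Shh and 75.0 and 90.8 in WT cells with Shh. Untreated cultures gave 207, 144 and 91.7 in KO cells and 169, 166 and 90.7 in WT cells. Shh-treated arrays lay below the untreated ones in KO cells, and in WT cells untreated array 5 lay just below the higher Shh-treated array. Icam1 differed by -0.98 ± 0.35 log2 in KO cells (adjusted p = 0.0646, and 0.0481 with consecutive arrays as pairs) and by -0.73 ± 0.35 in WT cells (adjusted p = 0.142). The KO value passed without array 5 or 6 and the WT value without array 5. Averaged over both genotypes it fell by 0.86 ± 0.25 (adjusted p = 0.0187), a call lost without array 7 or 10 (adjusted p up to 0.0620) with median centring (-0.54, adjusted p = 0.0794), with quantile normalization (-0.53, adjusted p = 0.130) and with no filter (adjusted p = 0.0571).

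Ptx3 encodes a secreted pentraxin, a soluble pattern recognition protein. It had signals of 200 and 129 in KO cells with Shh and 201 and 187 in WT cells with Shh, against 288, 297 and 319 in untreated KO cells and 398, 477 and 378 in untreated WT cells. All 4 Shh-treated arrays lay below all 6 untreated arrays, and the untreated KO arrays lay below the untreated WT arrays. Ptx3 fell with Shh by 0.91 ± 0.18 log2 in KO cells (adjusted p = 0.00545) and by 1.10 ± 0.18 in WT cells (adjusted p = 0.00166). Both calls held when any 1 array was left out. Its second probe set was below the line for testing and averaged -1.24 log2.

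**Figure D2:**
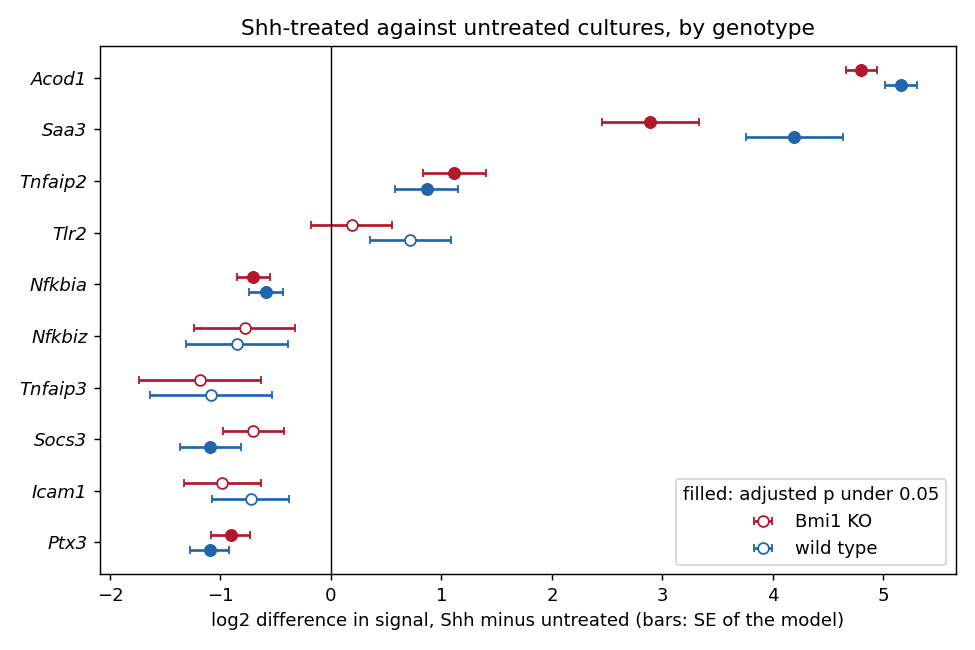
Log2 difference in signal, Shh minus untreated, of each gene in KO cells (red, upper of each pair) and WT cells (blue, lower), with bars of 1 SE of the model. Filled points passed an adjusted p of 0.05. Acod1, Saa3 and Tnfaip2 lie to the right in both genotypes with filled points, and Nfkbia and Ptx3 to the left.

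Counted together, 3 of the 10 genes rose with Shh and 2 fell in KO cells. Of all genes tested in KO cells, 11.0% rose and 17.0% fell, 28.0% in all. In WT cells 3 rose and 3 fell, and of all genes 14.0% rose and 19.8% fell, 33.8% in all. Averaged over the genotypes 3 rose and 5 fell, and of all genes 20.9% rose and 26.2% fell, 47.1% in all. The median difference of the 10 genes was -0.73 log2 in that average and that of all genes -0.01. Since a large share of the array differed between Shh-treated and untreated cultures, and since the 3 genes that rose passed the filter only through the Shh-treated arrays, nothing particular to the 10 genes is read from these counts. Arrays of the Shh-treated and untreated groups did not overlap for 9 of the 10 genes in KO cells (55.7% of all genes) and for 7 in WT cells (58.6%).

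**Figure D3:**
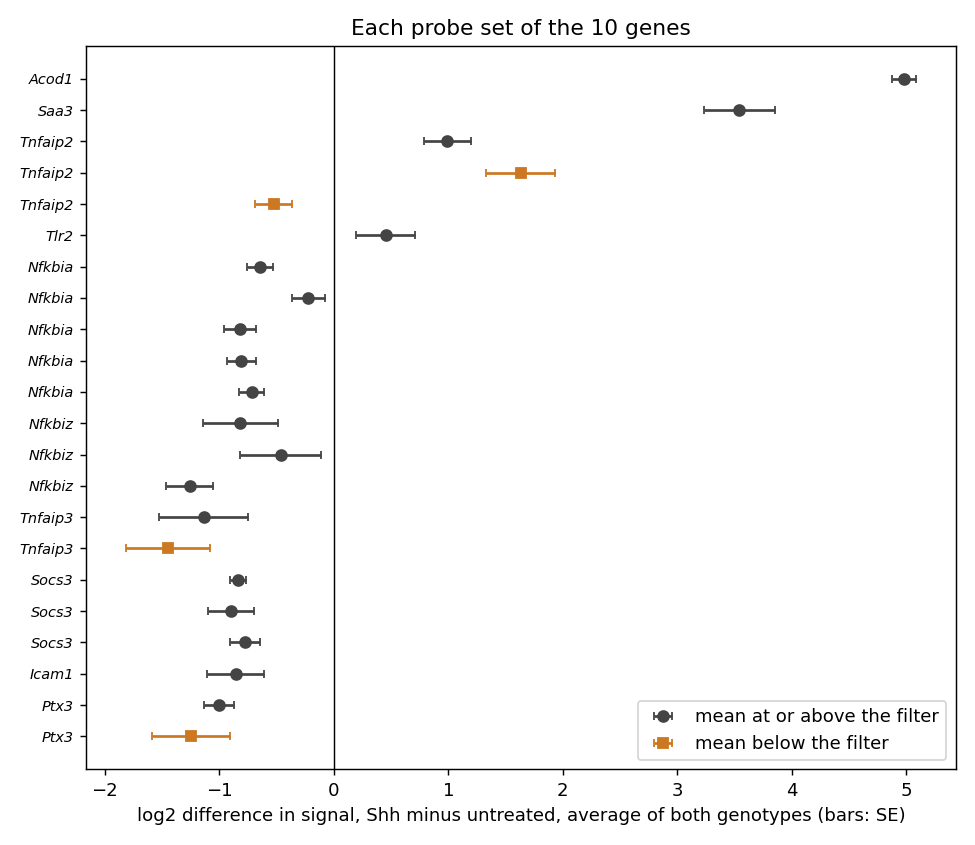
Log2 difference in signal, Shh minus untreated, averaged over KO and WT cells, for each of the 22 probe sets, with bars of 1 SE. Round points are the 18 probe sets at or above the line for testing and square points the 4 below it. Probe sets of a gene lie on the same side of 0 except 1 dim probe set of Tnfaip2, and the dimmest probe set of Nfkbia lies closer to 0 than the other 4 of that gene.

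No gene of the set, by its brightest probe set, was called between the genotypes in limma's test. In untreated cultures 0 of 10 passed, and 0.377% of all genes. At an unadjusted p under 0.05 these were 1 of 10, and 990 of all 11405 genes. With Shh 0 of 10 passed, and 0.728% of all genes. Unadjusted, these were 2 of 10, and 1113 of 11405. In the average of both conditions 0 of 10 passed, and 1.54% of all genes. Unadjusted, these were 2 of 10, and 1479 of 11405. Arrays of the genotypes did not overlap for 1 of the 10 genes untreated (13.3% of all genes) and for 4 with Shh (39.1%).

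By brightest probe sets, the gene at an unadjusted p under 0.05 in untreated cultures was Ptx3. Its KO minus WT difference was -0.46 ± 0.16 log2 (adjusted p = 0.425). In the fit of every probe set, both other probe sets of Socs3 were also under 0.05. The tighter differed by -0.36 ± 0.09 log2 (unadjusted p = 0.00322, adjusted p = 0.270), and its KO and WT arrays did not overlap. The other differed by -0.46 ± 0.16 (unadjusted p = 0.0212, adjusted p = 0.491). With Shh, the genes under 0.05 were Acod1 and Saa3. Acod1 differed by -0.36 ± 0.16 log2 between KO and WT cells (unadjusted p = 0.0467, adjusted p = 0.499), and its KO and WT arrays overlapped. Its untreated arrays, all set to the floor, added no spread, which lowers that p-value. Saa3 differed by -1.54 ± 0.48 log2 (unadjusted p = 0.0106, adjusted p = 0.262). Its 2 KO arrays with Shh both read lower than the 2 WT arrays, and of the fits that left out 1 array the value passed in the one without array 2, an untreated KO array (adjusted p = 0.0425).

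Tlr2 was lower in the KO array in 5 of 5 pairs of consecutively numbered arrays, by 0.11 to 0.81 log2. Averaged over both conditions its KO minus WT difference was -0.53 ± 0.26 log2 (adjusted p = 0.434). With consecutive arrays as pairs the same difference had an SE of 0.07 and passed the threshold (adjusted p = 0.0328). Tlr2 was the 1 gene of the 10 to do so, and 140 of all 11405 genes did. The fit with pairs has fewer residual degrees of freedom than the 6 of the main fit. The pairs are read from the numbers, and the labels do not say that a pair shares a preparation. Ptx3 was also lower in the KO array in 5 of 5 pairs, by 0.01 to 0.68 log2. It did not pass with the pairs (adjusted p = 0.182) or without them (-0.37 on average, adjusted p = 0.244). The share of all genes lower in 5 of 5 pairs is not given here.

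The test of whether the Shh difference itself depended on genotype called 0 of the 10 genes and 0.00877% of all genes. By brightest probe sets, none of the 10 had an unadjusted p under 0.05, against 561 of all 11405 genes. Saa3 had a Shh difference lower by 1.30 ± 0.62 log2 in KO than in WT cells (unadjusted p = 0.0643, adjusted p = 1.00). In that fit 1 of its untreated KO arrays was set to the floor. For Tlr2 the KO minus WT difference of the Shh effect was -0.53 log2 and for Socs3 0.39. The dimmest and tightest probe set of Socs3 gave 0.36 ± 0.14 in the fit of every probe set (unadjusted p = 0.0327, adjusted p = 0.9999). All 6 untreated arrays of Acod1 were at the floor, so the difference between its Shh effects was not measured.

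The genes did not vary alike within groups. After the mean of each group was taken off, Tlr2, Nfkbia, Nfkbiz, Tnfaip3 and Icam1 deviated together over the 10 arrays, with r between 0.73 and 0.97 for their 10 pairings. The other 35 pairings of the 10 genes gave r from -0.67 to 0.44. The 5 genes were put together after these values were seen, the 10 points come from 4 groups whose deviations sum to 0, and no test was made. Among untreated cultures, arrays 1 (WT) and 2 (KO) read high for all 5 genes, by their brightest probe sets, and arrays 5 (WT) and 6 (KO) read low. The dimmest probe set of Nfkbiz did not follow this. It read 90.4, 180 and 174 on untreated KO arrays 2, 4 and 6, and 143, 106 and 117 on untreated WT arrays 1, 3 and 5. Tnfaip3 lay 1.05 log2 above the group mean on array 1 and 1.10 below it on array 5. The Shh-treated arrays deviated less, by at most 0.18 log2 for these 5 genes. Acod1 had no deviation among untreated arrays because all were at the floor.

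**Figure D4:**
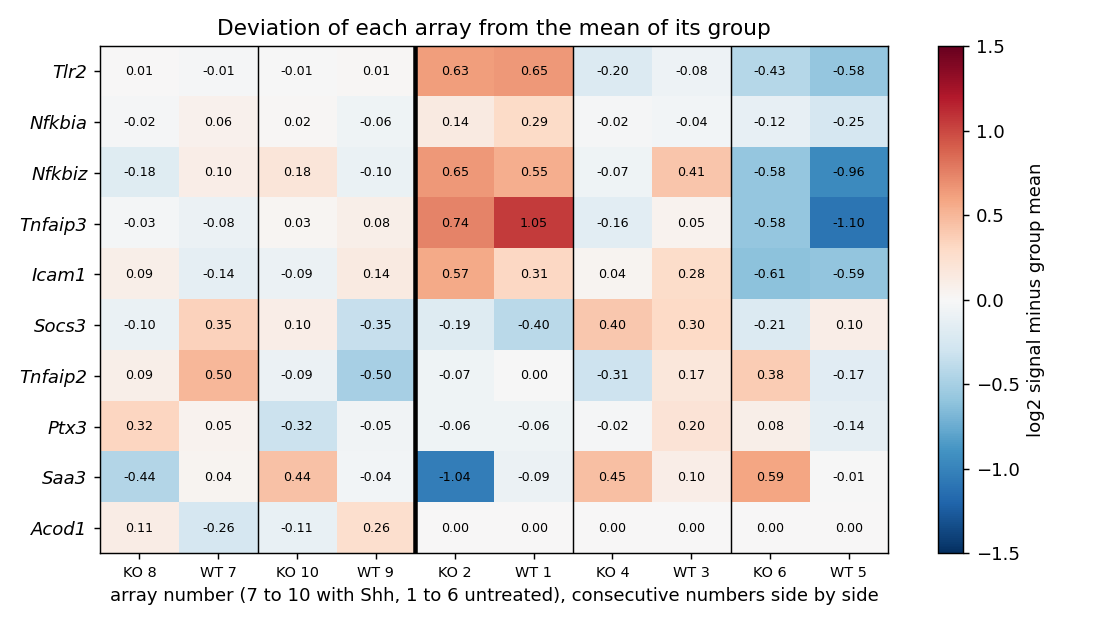
Log2 signal of each gene on each array minus the mean of that array's group, with arrays in pairs of consecutive numbers, Shh-treated pairs left of the thick line and untreated pairs right of it. Red is above and blue below the group mean. For Tlr2, Nfkbia, Nfkbiz, Tnfaip3 and Icam1, arrays 2 and 1 are red and arrays 6 and 5 are blue.

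These consecutive arrays were alike beyond the 10 genes. Over all tested genes the deviations of consecutive untreated arrays correlated at r of 0.28, 0.12 and 0.22, and those of other pairings of an untreated KO and an untreated WT array at -0.27 to 0.05. Because deviations sum to 0 in each group, positive values in some pairings go with negative values in others. The 18S RNA control read 2030 on array 1 and 6301 on array 6, against 219 to 649 on the others. Its part in the spread of the 5 genes was not tested.

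The genes closest to the mean profile of the 10 over all 10 arrays, by Pearson r of z-scored log2 signal, were Bicdl1 (0.92), Gorasp2 (0.90), Nlrp3 (0.87), 4632415L05Rik (0.87) and Stk19 (0.86). Nlrp3 encodes the inflammasome sensor, itself primed by NF-κB in macrophages. After the group means were taken off, the closest were Aebp2 (0.99), Zfp365 (0.98), Csf1 (0.98), Alkbh1 (0.97) and Pgap3 (0.97). Each r is the top of 11405 genes over 10 arrays, in which the Shh groups and the untreated groups form separate clusters, and is given as a description. Gene by gene, a listing added after the data were seen, the closest to Acod1 over all arrays were Ccl5 (r = 0.996), a chemokine, with Zswim1 and Usp18, an interferon-induced protease. The closest to Tnfaip3 were the immediate early genes Fos (0.97) and Dusp1 (0.96) and the IκB family gene Nfkbid (0.96). The closest to Saa3 were Ddx58, the RNA sensor RIG-I, and B2m, the light chain of class I MHC (both 0.99). Nsmce1 came next (0.98). Acod1, Tnfaip3 and Saa3 were picked from a listing of all 10 genes. Others had other neighbours, among them Kdelr3 (0.98) and Lhfpl2 (0.97) for Ptx3, and Fam13c (0.97) and Ankrd26 (0.96) for Tnfaip2. With group means taken off, the closest to Saa3 were Pigl (0.97), Acss2 (0.95) and Msl3l2 (0.94).

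The rest of the pathway was taken from 6 lists, chosen with results of these data known. None of their genes was called in any genotype comparison. Their counts with Shh are averages over the genotypes, in which 20.9% of all genes rose and 26.2% fell. Among NF-κB subunits and IκB kinases, 1 of 6 tested genes rose and 1 fell with Shh on average over the genotypes: Tbk1 by 0.45 log2 and Ikbkg, the regulatory subunit NEMO, by -0.24. Of 4 other IκB family genes, 1 fell, Nfkbil1 by 0.27. The calls among these core genes were all small.

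Among receptors and adaptors upstream of NF-κB, 3 of 14 tested genes rose and 3 fell (all genes, 20.9% and 26.2%). The TNF receptor Tnfrsf1b rose by 1.66 ± 0.16 log2 (adjusted p = 5.19e-05) and the lipopolysaccharide co-receptor Cd14 by 1.54 ± 0.25 (adjusted p = 0.000998). Cd14 had signals of 533 and 501 in KO cells with Shh and 755 and 611 in WT cells with Shh, against 224, 134 and 152 in untreated KO cells and 429, 219 and 170 in untreated WT cells. Traf2 rose by 0.34, and Traf6, Il1rap and Irak1 fell by 0.58, 0.39 and 0.38. Of cytokines that act through NF-κB or STAT3, 5 of 12 on the array were tested and 2 fell, Il33 by 2.36 and Il18 by 0.95 log2.

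Among other NF-κB target and feedback genes, 2 of 14 tested genes rose and 6 fell (all genes, 20.9% and 26.2%). Cd83 fell by 2.16 log2, Ccrl2 by 1.20 and Vcam1, an endothelial adhesion molecule, by 1.20. Sod2 rose by 0.44 and Plaur by 0.40. The median of this list was -0.33 log2, against -0.01 over all genes.

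Among STAT3 and acute-phase genes, 4 of 17 tested genes rose and 2 fell (all genes, 20.9% and 26.2%), with a median of 0.00. Of the tested genes, the largest differences were those of Cp, the copper carrier ceruloplasmin (1.28 log2), Cebpb (0.92) and Cish (0.54), and Itih3 (-2.94) and Junb (-2.35). The liver acute-phase genes Fga, Fgb, Fgg, Hp and Orm3 were at the floor in all 4 groups. Lcn2, the iron-siderophore carrier lipocalin 2, was below the line for testing and is named after its values were seen. Its signals were 38.5 and 214 in KO cells with Shh and 916 and 829 in WT cells with Shh, against 37.6, 31.6 and 2.90 in untreated KO cells and 61.7, 21.3 and 8.25 in untreated WT cells. The Shh-treated WT arrays lay far above all others.

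Markers of other cell types also differed with Shh. Their counts with Shh are averages over the genotypes, in which 20.9% of all genes rose and 26.2% fell. Between genotypes 0.728% of all genes were called with Shh and 1.54% on average. In whole cultures, fewer cells of a type and less RNA per cell cannot be told apart. Of 21 tested microglia and macrophage markers, 10 were lower with Shh, among them Csf1r, Cx3cr1 and C1qa, and 6 higher: Adgre1, Cd68, Fcer1g, Itgb2, Lyz2 and Ptprc. The summed signal of the 22 on the array was 6369 to 8574 in KO cells with Shh and 9898 to 10067 in WT cells with Shh. Untreated, it was 9937 to 11228 in KO cells and 11379 to 16629 in WT cells. P2ry12 was at the floor in KO cells with Shh. The marker sum was lower with Shh within each genotype and lower in KO than in WT cells within each condition. A sum of signals gives most weight to the brightest markers, and markers went both ways with Shh. C1qa, C1qb and C1qc were lower in KO than in WT cells on average, by 0.84, 0.87 and 0.87 log2 (adjusted p = 0.00519, 0.0480 and 0.0246). Of 8 tested oligodendrocyte lineage markers, 3 were higher in KO than in WT cells with Shh, Cspg4, Olig1 and Sox10, and 2 on average, Cspg4 and Sox10. Of 14 astrocyte and Bergmann glia markers, 2 were higher in KO cells with Shh, Gdf10 and Sparcl1, and 0 on average. None of either list was lower in KO cells. Their part in the values of the 10 genes was not tested.

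Of 16 endothelial and pericyte markers on the array, 10 were tested, and all 10 were lower with Shh, by a median of 3.15 log2. The filter took the mean over all arrays, so markers dim with Shh could pass through the untreated arrays. Their count is thus not independent of the filter. The summed signal of all 16 was 714 to 767 in KO cells with Shh and 673 to 783 in WT cells with Shh. Untreated, it was 9411 to 11016 in KO cells and 9146 to 10488 in WT cells. Pecam1 was at the floor in both Shh groups. Of astrocyte markers 11 of 14 were lower and 1 higher, and of fibroblast and meningeal markers 9 of 11 lower and 1 higher. Of oligodendrocyte markers 6 of 8 were lower and 1 higher (all genes, 26.2% lower and 20.9% higher). Only 1 of 9 neutrophil markers was bright enough to test, and it was not called. The part of these cells in the lower signals of Icam1, Ptx3, Socs3, Nfkbia and Tnfaip3 and in the higher signals of Acod1 and Saa3 was not tested.

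**Figure D5:**
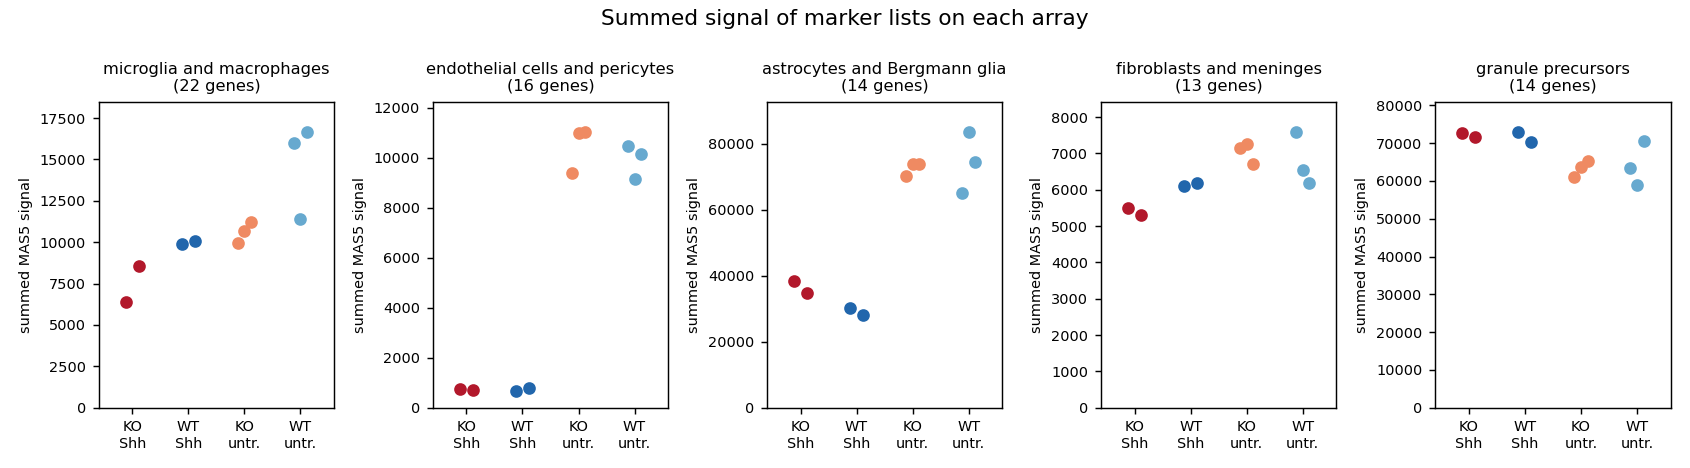
Summed signal of 5 marker lists on each array, with groups from left to right KO with Shh, WT with Shh, untreated KO and untreated WT. Endothelial and pericyte markers sum to 673 to 783 on the Shh-treated arrays and to 9146 to 11016 on the untreated arrays. Granule precursor markers sum to 70262 to 72827 with Shh and to 58895 to 70690 without. Their list includes Gli1, Ptch1, Mycn and Ccnd1, each brighter on every Shh-treated array than on any untreated array.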

How the data were processed

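RNA of 10 cultures was hybridised to 10 one-colour Affymetrix arrays. The deposited table holds the authors' MAS5 signal, a linear intensity per probe set, made with GCOS 1.2 and MAS5, per the submitters' processing notes. The other steps behind these intensities are not given in the sources used here. Of 45101 probe sets, 64 controls were left out. The platform annotation gave 34945 probe sets 1 symbol, 932 several and 9160 none.

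Signals were floored at 20.9, the 25th percentile, and log2 was taken. The brightest probe set stood for a gene, and 11405 genes with a mean of at least 6.25 log2 were tested. limma 3.58.1 in R 4.3.3 fitted 1 mean per group over all 10 arrays (6 residual and 3.11 prior degrees of freedom, two-sided) for 7 comparisons. Benjamini-Hochberg adjustment was over all genes tested, at a threshold of 0.05. The script was tested on simulated data. The number of arrays limits the precision.

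The members, the lists and the tests were chosen with earlier results of these data known. Named were all members, of each list up to 3 genes past the threshold in each direction by size, and the 5 nearest genes by Pearson r. Alternatives changed the floor, filter, scaling, probe sets, arrays fitted and pairing, or left out each array in turn. Pairing came from consecutive array numbers. The deviations of all 5 such pairs correlated above 0.1 over all genes (r = 0.12 to 0.28), and 5 pairs were used as a block. In groups of 2 arrays the deviations mirror each other. Both Shh-treated pairs therefore share a single value (0.16), and the other Shh-treated pairings give its negative (-0.16). The values are thus not independent, and the labels name no pairs. For differences with Shh, which lie between pairs, a common correlation of 0.29 within pairs was used.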

Additional observations from a re-analysis of the deposited data

How the results depend on the processing

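With the replicate block of 5 pairs, the KO minus WT calls were 23 in untreated cultures, 50 with Shh and 140 on average (43, 83 and 176 without it). The interaction called 0 genes (1 without it). Of the 10 genes 1, Tlr2, passed in the average genotype difference (0 without it). Beside the calls of Tlr2, Tnfaip2 and Icam1 given above, the block changed no call of the 10 genes. Median centring gave 6424 calls with Shh in WT cells and 5475 in KO cells, against 3855 and 3199. The share of higher calls became 80.7% in WT cells and 79.4% in KO cells, against 41.3% and 39.4%. In the average Shh difference it became 80.2%, against 44.4%. No difference of the 10 genes with Shh changed sign under median centring or quantile normalization. Testing every probe set made 8130 calls in the average Shh difference, against 5376 genes. KO minus WT calls with Shh were 51 after quantile normalization and 3 in a fit of only the 4 arrays compared. The interaction called 3 genes with the floor at the 10th percentile, and 0 without the filter, with the filter at the 25th percentile, with median centring, with quantile normalization and with every probe set. Without arrays 1 and 6 together, KO minus WT calls were 10 untreated, 52 with Shh, 80 on average and 0 for the interaction. The untreated KO minus WT differences then changed sign for Tlr2 (0.28), Nfkbia (0.11), Nfkbiz (0.42), Tnfaip3 (0.77) and Tnfaip2 (-0.066), as did the Shh difference of Tlr2 in KO cells (-0.027). These changes go with the deviations of the arrays left out, which are not consecutive. Array 1 lay above the untreated WT mean and array 6 below the untreated KO mean for Tlr2, Nfkbia, Nfkbiz and Tnfaip3. For Tnfaip2 array 6 lay 0.38 log2 above the KO mean. Why these arrays deviated was not tested.

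Leaving out 1 array at a time, untreated KO minus WT differences, none called, ran from -0.58 to 0.065 log2 for Tlr2, -0.21 to 0.055 for Nfkbia, -0.62 to 0.15 for Nfkbiz, -0.59 to 0.48 for Tnfaip3, -0.26 to 0.34 for Icam1, -0.064 to 0.28 for Tnfaip2 and -0.53 to 0.29 for Saa3. With Shh they ran from -0.25 to 0.11 for Nfkbiz, -0.52 to 0.19 for Socs3, -0.13 to 0.87 for Tnfaip2 and -0.59 to 0.046 for Ptx3. The Shh difference of Tlr2 in KO cells ran from -0.027 to 0.50. Calls over all genes ran from 19 to 50 for KO minus WT untreated, 29 to 91 with Shh and 82 to 219 on average. They ran from 1893 to 3193 for Shh in KO cells, 2380 to 3752 in WT cells, 4491 to 5246 on average, and 0 to 2 for the interaction. Of the 10 genes, 3 to 6 passed with Shh in KO cells, 4 to 8 in WT cells and 6 to 9 on average, and 0 to 1 between genotypes with Shh. Where 1 array of a group of 2 was left out, the other was assumed to vary like the other groups. With the floor at the 10th percentile, or with 16 added in place of a floor, Acod1 did not reach the line for testing and gave no value.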
